A study of Mus musculus with 6 samples.

Results

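The mouse brain's endothelial tight junctions contain many proteins besides claudin-5, and 9 of their genes were followed across the vascular tree: Ocln, Cldn12, Marveld2, Lsr, Jam2, Jam3, F11r, Tjp1 and Cgnl1. They were taken by symbol from the count matrices and are 9 of the 32286 features that were counted in each library. Anti-PECAM1 beads, which bind an endothelial adhesion protein, captured the brain microvessels, which were profiled by droplet single-cell RNA sequencing with 10x Genomics v3.1 chemistry. All mice were C57Bl6, carried Cldn5 fl/fl and R26 YFP/YFP alleles, and received 100 µl of tamoxifen at 20 mg/ml by gavage on 3 days, at about 3 months of age. The 3 iECKO libraries came from mice that also carried Cdh5-creERT2, an inducible recombinase driven by the promoter of an endothelial cadherin. The 3 control libraries lacked it, so the controls shared the floxed alleles, the reporter and the tamoxifen. Cldn5 encodes claudin-5, and its deletion with this driver is mosaic, so that cells with and without counted Cldn5 RNA can be compared within 1 iECKO library. The questions were whether the 9 genes differ between arterial, capillary and venous cells, whether they differ by genotype, and whether they are higher in cells without counted Cldn5 RNA, the question of compensation.

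Tight junctions seal the cleft between neighbouring cells with strands of transmembrane proteins that are held by a cytoplasmic plaque. Claudins form the strands, occludin (Ocln) joins them, and where the corners of 3 cells meet, angulins such as the lipolysis-stimulated receptor (Lsr) recruit tricellulin (Marveld2). The junctional adhesion molecules are immunoglobulin-type receptors: F11r encodes JAM-A, Jam2 encodes JAM-B and Jam3 encodes JAM-C. ZO-1 (Tjp1) is the scaffold that binds claudins and actin, and paracingulin (Cgnl1) is a plaque protein that binds ZO-1 and regulators of small GTPases. In the brain these junctions are a main part of the blood-brain barrier, while endothelium of the choroid plexus and other leaky sites carries fenestrations and the protein PLVAP.

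On GRCm38 the genes lie apart from Cldn5 except for Jam2, which is on the same chromosome. In the GENCODE annotation Ocln spans chr13:100496507-100552718 and Marveld2 lies beside it at chr13:100595957-100616971, both on the minus strand. Tjp1 spans chr7:65296165-65527781 and Lsr chr7:30957770-30973464. Cgnl1 spans chr9:71626509-71771602 and Jam3 chr9:27097384-27155421. Cldn12 is at chr5:5489537-5514958, F11r at chr1:171437535-171464603 and Jam2 at chr16:84774123-84825928, while Cldn5 is at chr16:18776847-18778262. All values below are sums of unique molecular identifiers (UMIs) over the whole gene.

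Ocln, Lsr and Cgnl1 are shown as examples with the 250 bases before a start site. They differed between kinds of endothelial cell and have an entry in RefSeq's table of start sites, which Jam2 and Jam3 lack. Ocln and Lsr were low together in a subcluster led by Plvap, and Cgnl1 was low in venous cells. Tjp1 and F11r also differed between zones and have an entry, but are not shown. The sequences are RefSeq's on GRCm38.p6, minus strand, 5′ to 3′, at chr13:100552719-100552968 for Ocln, chr7:30973470-30973719 for Lsr and chr9:71771603-71771852 for Cgnl1. Capitals mark 6-base motifs on either strand.
Ocln: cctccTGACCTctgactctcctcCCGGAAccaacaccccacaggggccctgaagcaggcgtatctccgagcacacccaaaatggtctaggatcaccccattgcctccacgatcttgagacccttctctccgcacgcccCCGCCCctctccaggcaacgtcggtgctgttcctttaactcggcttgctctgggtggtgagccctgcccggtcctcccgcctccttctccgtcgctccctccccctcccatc
Lsr: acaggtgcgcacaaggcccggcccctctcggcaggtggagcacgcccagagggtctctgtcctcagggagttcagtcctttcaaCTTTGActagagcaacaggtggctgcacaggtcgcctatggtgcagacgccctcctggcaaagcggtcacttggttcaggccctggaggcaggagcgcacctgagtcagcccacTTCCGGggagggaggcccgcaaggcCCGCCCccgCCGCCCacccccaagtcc
Cgnl1: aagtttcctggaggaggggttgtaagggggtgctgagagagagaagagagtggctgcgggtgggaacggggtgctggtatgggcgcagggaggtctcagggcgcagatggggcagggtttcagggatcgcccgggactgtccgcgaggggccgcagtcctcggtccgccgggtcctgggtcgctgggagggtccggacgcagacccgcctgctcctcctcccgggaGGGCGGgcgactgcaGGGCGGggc
The motifs searched, with their reverse complements, were CCGGAA (core of ETS factor sites), GGGCGG (GC box), AGGTCA (nuclear receptor half-site), CTTTGA (TCF/LEF core), ACAATG (SOX core) and CACGTG (E-box), and no matches overlapped in these windows. The Ocln window held the nuclear receptor half-site, the ETS core and the GC box once each, at 245, 227 and 112 bases before the start. RefSeq lists another Ocln start, whose window at chr13:100552499-100552748 is not shown and held only 1 GC box, at 43 bases. The Lsr window held the TCF/LEF core, the ETS core and 2 GC boxes, at 166, 52, 27 and 18 bases. Cgnl1 held 2 GC boxes at 24 and 9 bases, and 70.8% of its window was G or C, against 64% for Ocln and 66.8% for Lsr. Among 32851 windows of that length in RefSeq's table, GGGCGG was found in 32.7%, AGGTCA in 14.0%, CTTTGA in 13.8%, CCGGAA in 12%, ACAATG in 10.7% and CACGTG in 6.02%. These are matches of letters only.

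Each control library held 4049 to 6684 barcodes and 29721428 to 31638780 UMIs. Each iECKO library held 2714 to 7420 barcodes and 15727366 to 49350802 UMIs. After filtering, 21909 cells were used as endothelial, 3100 to 4838 from a control and 1893 to 4653 from an iECKO library, at median depths of 3657 to 4815 and 4192 to 5750 UMIs. Their 12 endothelial markers summed to 16263 to 21383 CPM (UMIs scaled to a library total of 1e+06) in every library, and 96 barcodes occurred in more than 1 library. Barcodes removed as mixtures of classes were 8.68% of endothelial barcodes in iECKO replicate 1 and 0.555% to 1.51% in the others. Cldn5 itself was 4767, 4291 and 4813 CPM in the control and 2841, 2318 and 2800 CPM in the iECKO libraries, which did not overlap. Its log2 difference in edgeR was -0.80 ± 0.20 (SE, n = 3 and 3, adjusted p = 0.277), and -0.81 ± 0.09 (adjusted p = 0.00585) once replicate numbers were blocked.

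Outside the endothelium the 9 genes fell into different patterns, given here as ranges over 6 libraries without a test. Ocln was 5.59 to 19.2 CPM in pericytes, 0 to 4.14 in smooth muscle and 0 to 9.45 in microglia, far below its sums in arterial, capillary and venous cells. Lsr was also low there, at 0 to 29.1 CPM in pericytes, 2.37 to 10.1 in smooth muscle and 2.35 to 11.1 in microglia. No Marveld2 UMI was counted in the pericytes of any library, while microglia held 0 to 11.1 CPM of it on 0 to 6 UMIs, a range that overlaps the control endothelial sums. In the 2 libraries with enough B cells Marveld2 was 19.7 and 23.6 CPM, on 3 and 2 UMIs. F11r was highest in microglia, the brain's resident macrophages, with 344 to 543 CPM. Jam3 was highest in the mural cells, at 114 to 163 CPM in pericytes and 116 to 150 CPM in smooth muscle. Tjp1 was also counted in pericytes (232 to 389 CPM), and Cgnl1 there at 63.0 to 160 CPM. Jam2 reached 70.5 to 107 CPM in microglia. The endothelial sums held 33.5 to 56.5 CPM of 8 microglial markers and 38.8 to 104 CPM of 10 pericyte markers. The pericyte sum was higher in each iECKO library than in any control. So were 6 astrocyte markers (70.0 to 81.1 CPM in control and 102 to 178 CPM in iECKO libraries), 5 neuron markers (7.98 to 10.8 and 14.0 to 22.3 CPM) and 8 T and NK cell markers, all under 1 CPM. The part of these sums in the genotype results was not tested.

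**Figure D1:**
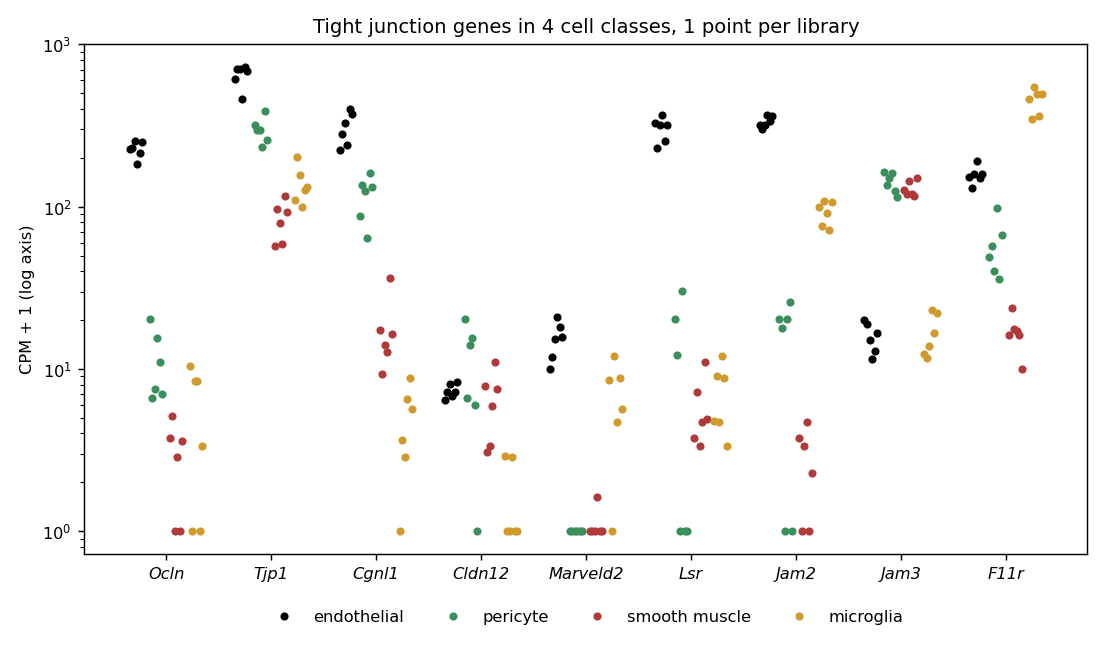
CPM plus 1 (log axis) of the 9 genes in endothelial cells, pericytes, smooth muscle cells and microglia, with 1 point per library and values from raw sums. F11r sits higher in microglia (344 to 543 CPM) than in endothelial cells, and Jam3 sits at 114 to 163 CPM in pericytes.

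Along the vascular tree of the control mice, the plaque gene Cgnl1 showed the widest difference of the 9: it was about 2.6 times lower in venous than in capillary cells, while arterial and capillary cells had similar levels. Ocln was highest in capillary cells, Tjp1 was lowest in arterial cells, and the tricellular gene Lsr was somewhat higher in venous cells. Zones were called from subclusters that were built without the 9 genes, Cldn5 and the wider tight junction list, so those genes could not shape the groups. Between zones, 33.6% of all genes tested passed an adjusted p under 0.05 for arterial against capillary cells, 41.4% for venous against capillary and 35.9% for arterial against venous. Of the 9 genes, 3, 4 and 3 passed, a share close to that background. In the direction of their calls, the backgrounds were 18.8% higher and 14.7% lower for arterial against capillary cells, where 1 of the 9 was higher and 2 lower. They were 22.4% and 19.0% for venous against capillary cells (1 and 3 of the 9), and 18% and 17.8% for arterial against venous cells (1 and 2). The median log2 difference of the 9 was -0.05, -0.03 and 0.00, beside medians of 0.01, 0.01 and -0.01 over all genes.

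Cgnl1 was 249, 348 and 332 CPM in arterial cells of control replicates 1, 2 and 3. In capillary cells it was 260, 358 and 338 CPM, and in venous cells 93.2, 140 and 139 CPM. Every venous sum lay under every arterial and capillary sum. The log2 difference of venous against capillary cells was -1.36 ± 0.06 (SE, n = 3 libraries, edgeR quasi-likelihood test with library as block, adjusted p = 5.23e-13), and arterial against venous was 1.32 ± 0.06 (adjusted p = 6.32e-13). Arterial and capillary cells were not distinguished (-0.04 ± 0.06, adjusted p = 0.627). Within the iECKO libraries the same step was present, at 122, 206 and 176 CPM in venous cells against 284, 482 and 369 CPM in capillary cells.

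Tjp1, which encodes the ZO-1 scaffold, was 547, 698 and 566 CPM in arterial, 686, 814 and 668 CPM in capillary and 654, 788 and 678 CPM in venous cells of the controls. The arterial sum was the lowest in each library, although the ranges of the zones overlapped. Arterial cells were lower than capillary cells by -0.26 ± 0.05 (adjusted p = 0.000573) and lower than venous cells by -0.23 ± 0.05 (adjusted p = 0.00167) in edgeR. Capillary and venous cells did not differ beyond their error (-0.03 ± 0.05).

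Ocln, the strand-associated partner of the claudins, was 189, 229 and 207 CPM in arterial, 266, 284 and 254 CPM in capillary and 226, 210 and 198 CPM in venous cells of the controls. All 3 capillary sums were above all arterial and venous sums. In edgeR, arterial cells were lower than capillary cells by -0.36 ± 0.07 (adjusted p = 0.000228) and venous cells by -0.35 ± 0.07 (adjusted p = 0.000281). Arterial and venous cells did not differ (-0.01 ± 0.07). Cldn12, another claudin, was 5.53 to 6.81 CPM in arterial, 5.65 to 7.36 in capillary and 5.53 to 6.75 in venous cells, and no zone contrast passed. It rested on 16 to 101 UMIs per sum, so small differences were not detectable at this depth.

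Among the tricellular genes, Lsr was 338, 257 and 291 CPM in arterial, 350, 247 and 287 CPM in capillary and 442, 298 and 303 CPM in venous cells of the controls. Venous cells were the highest in each library and exceeded capillary cells by 0.23 ± 0.06 (edgeR, adjusted p = 0.00724). That call rested on control replicates 1 and 2, since without them the adjusted p was 0.102 and 0.0587. Arterial cells were lower than venous cells by -0.21 ± 0.07 (adjusted p = 0.0135, and 0.195 without control replicate 1). Depth differed between zones, with medians of 4985 to 12936 UMIs in venous and 3368 to 5226 UMIs in capillary cells over all 6 libraries. With each cell thinned to 2000 UMIs, Lsr was found in a median of 46.5% of venous and 47.4% of capillary cells. The rise in venous cells was thus not seen in that measure. Marveld2, which encodes tricellulin, was 7.79 to 14.6 CPM in arterial, 9.71 to 13.4 in capillary and 10.3 to 13.3 in venous cells, with no contrast past the threshold.

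The junctional adhesion molecules showed small differences between zones. F11r was 166, 155 and 151 CPM in arterial and 153, 133 and 131 CPM in capillary cells of the controls, a difference of 0.19 ± 0.06 (edgeR, adjusted p = 0.0206). The call was lost without control replicate 2 (adjusted p = 0.138) or 3 (0.166). Jam2 was 343, 354 and 299 CPM in capillary and 340, 289 and 254 CPM in venous cells, and venous cells were lower by -0.18 ± 0.06 (adjusted p = 0.0252). Without control replicate 2 or 3 the adjusted p for Jam2 was 0.209 and 0.121. Jam3 rested on 7 to 73 UMIs per sum and ranged from 2.95 to 6.56 CPM over the 3 zones, with no contrast past the threshold.

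**Figure D2:**
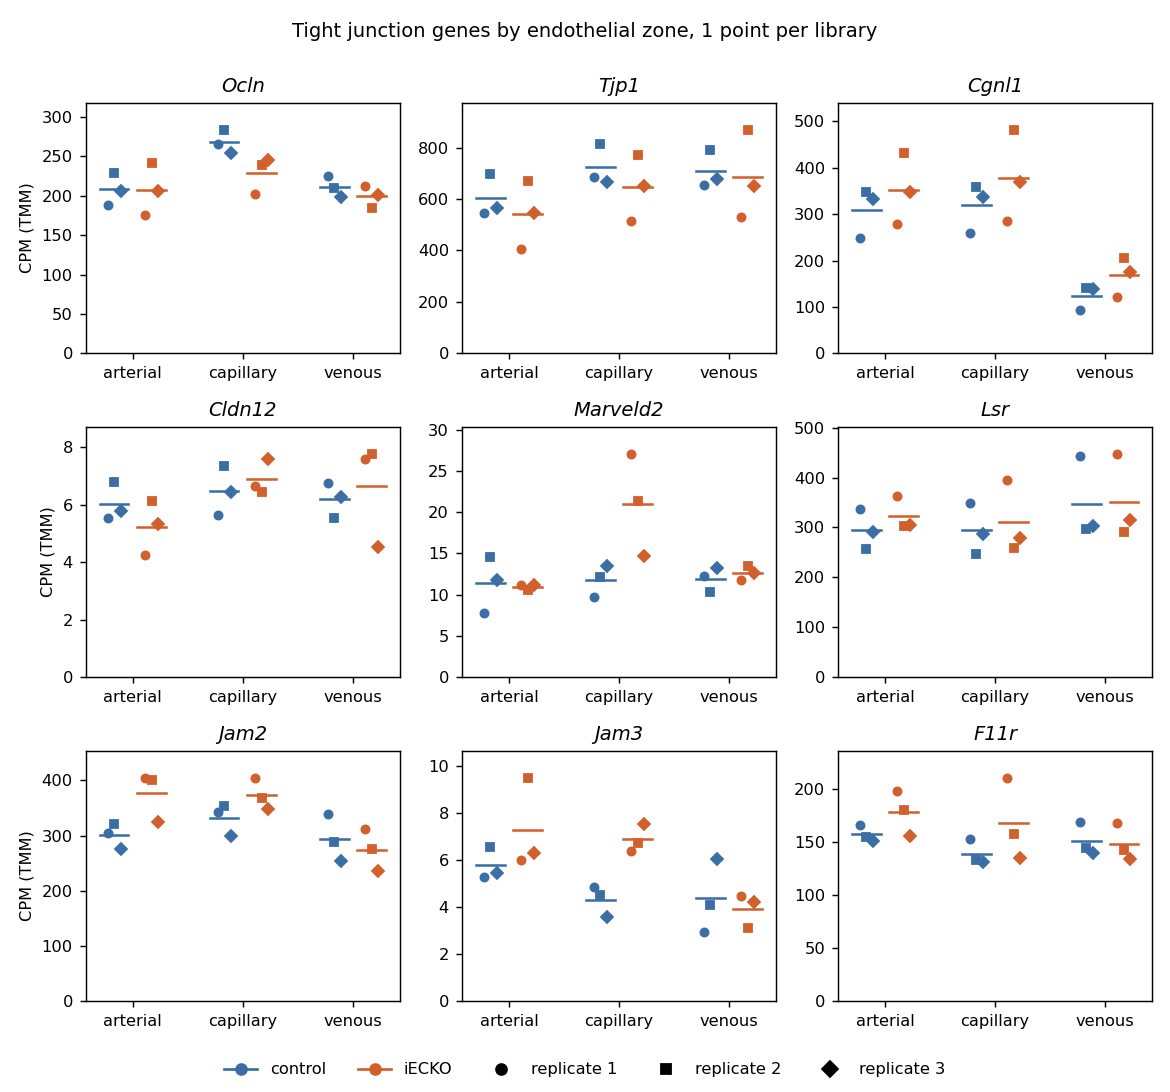
CPM after TMM scaling (linear axes from 0) of the 9 genes in arterial, capillary and venous endothelial cells, with 1 point per library, marker shape for the replicate number and a bar for the mean of 3 libraries. Cgnl1 drops to 93.2 to 140 CPM in venous cells of the controls, and Marveld2 in capillary cells is the gene in which the iECKO points spread most from the controls.

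Among the 26 other tight junction genes tested between zones, 10 passed for arterial against capillary cells (3 higher, 7 lower), 13 for venous against capillary (7 higher, 6 lower) and 17 for arterial against venous (7 higher, 10 lower). Over all genes, 33.6%, 41.4% and 35.9% passed in the same contrasts. Marveld1, a MARVEL-domain relative of occludin and tricellulin, was 38.2, 42.6 and 36.0 CPM in arterial against 11.3, 12.2 and 14.4 CPM in capillary cells of the controls. Its log2 difference was 1.61 ± 0.11 in edgeR (adjusted p = 4.69e-10), and the arterial and capillary sums were far apart. Pard6g, a member of the PAR polarity complex, went the other way, with 1.66 to 2.23 CPM in arterial and 5.99 to 11 CPM in capillary cells (-2.20 ± 0.25, adjusted p = 6.17e-07). The membrane-associated guanylate kinases Magi2 (-1.65 ± 0.35) and Magi3 (-0.56 ± 0.08), and the adhesion gene Igsf5 (-1.14 ± 0.16), were also lower in arterial than in capillary cells, while the angiomotin-family gene Amotl1 (0.36 ± 0.06) and the polarity gene Pard6a (0.42 ± 0.15) were higher.

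In venous cells the claudin gene Cldn11 stood out at a low level, with 14, 26 and 13 UMIs against 2, 1 and 4 UMIs in the far larger capillary sums. In CPM these were 5.82, 6.27 and 3.00 in venous and 0.133, 0.0718 and 0.279 in capillary cells (log2 difference 4.79 ± 0.52, edgeR, adjusted p = 2.05e-07). The kinase gene Prkcz (0.92 ± 0.31), Pard6g (0.87 ± 0.16) and Marveld1 (0.66 ± 0.14) were also higher in venous than in capillary cells. Magi3 (-0.90 ± 0.09), Amotl2 (-0.88 ± 0.09), Igsf5 (-0.57 ± 0.15) and Amot (-0.45 ± 0.09) were lower there.

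A subcluster that no zone marker set could name was led by Plvap and Esm1 and held a mean share of 3.72% of control and 2.58% of iECKO endothelial cells (3 libraries each). In these 725 cells most of the 9 genes had other levels than in capillary cells, shown as ranges over 6 libraries without a test. Ocln was 4.29 to 15.2 CPM, against 259 to 294 CPM in capillary cells outside an Apln-led subcluster, which is 19.3 to 65.4 times lower in the same library. Lsr was 3.39 to 22.8 CPM against 226 to 375 CPM. These low sums rest on 1 to 13 UMIs of Ocln and 3 to 15 UMIs of Lsr. Tjp1 (197 to 334 CPM), Cgnl1 (40.8 to 98.9 CPM), Jam2 (161 to 214 CPM) and Cldn5 (52.6 to 180 CPM) were also lower in each library than in capillary cells. Jam3 went the other way and was 181 to 313 CPM against 4.06 to 7.17 CPM, or 28.5 to 69.0 times higher. F11r differed little, at 141 to 218 CPM against 121 to 175 CPM, and was the higher in 5 of 6 libraries.

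The Apln-led capillary subcluster held 0.745%, 0.496% and 0.677% of endothelial cells in control replicates 1, 2 and 3, and 48.4%, 22.1% and 7.87% in iECKO replicates 1, 2 and 3. Apln encodes apelin, a peptide of sprouting endothelium. In the iECKO libraries its cells carried 131 to 174 CPM of Ocln against 280 to 294 CPM in the other capillary cells. Tjp1 was 420 to 563 CPM against 639 to 851 CPM. Marveld2 was 20.5 to 31.1 CPM against 10.6 to 15.9 CPM and was the higher in 3 of 3 libraries, as was F11r at 160 to 205 CPM against 138 to 175 CPM. These differences are given without a test.

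**Figure D3:**
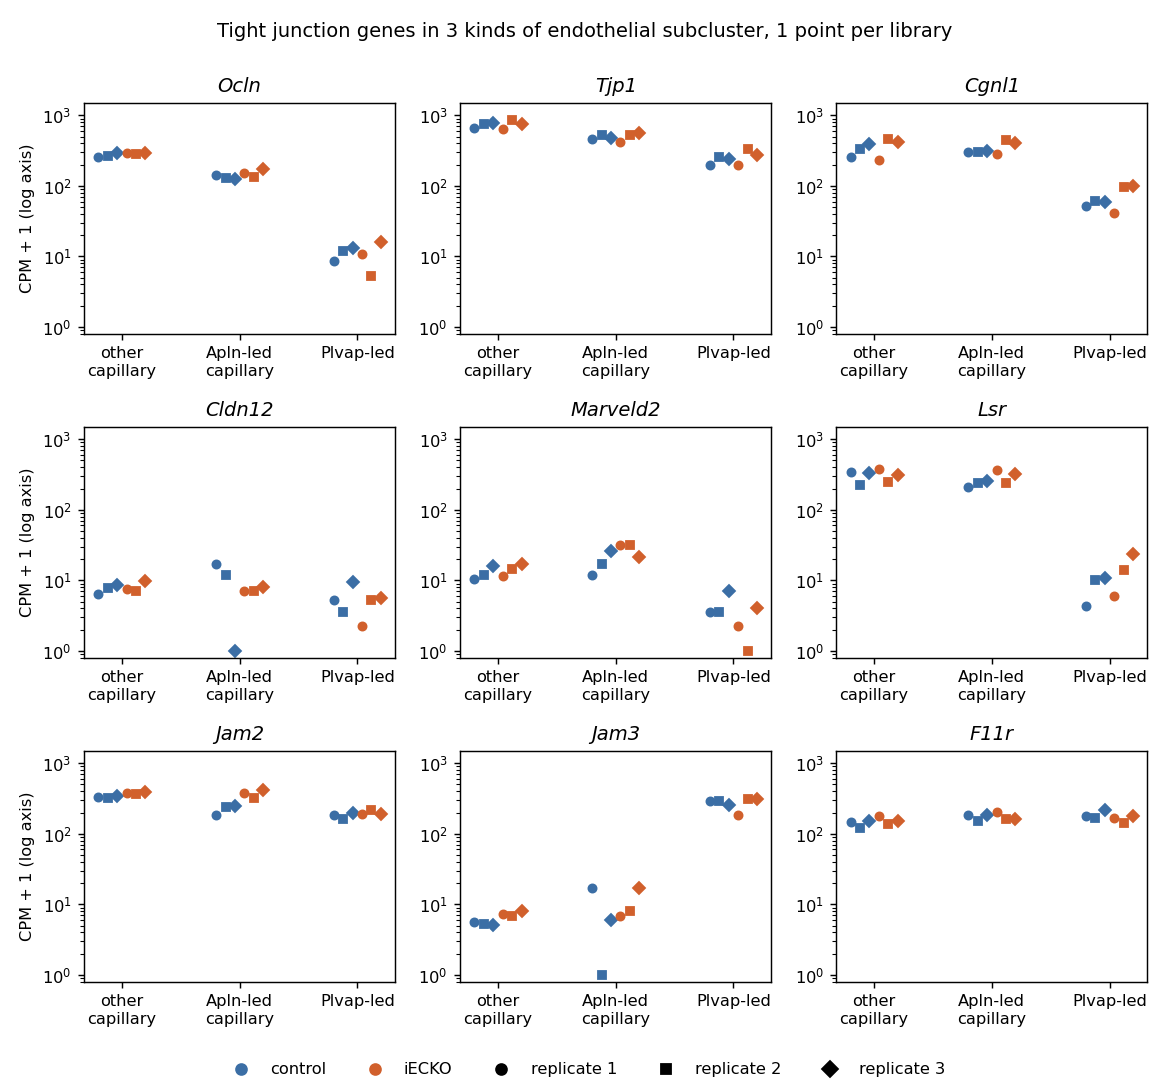
CPM plus 1 (log axis) of the 9 genes in capillary cells outside the Apln-led subcluster, in the Apln-led subcluster and in the Plvap-led subcluster, with 1 point per library and values from raw sums. Ocln and Lsr lie at 4.29 to 15.2 and 3.39 to 22.8 CPM in the Plvap-led cells, where Jam3 lies at 181 to 313 CPM.

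By genotype, none of the 9 genes passed the threshold in edgeR over all endothelial cells, where 0% of 13244 genes passed and 966 had an unadjusted p under 0.05, among them 1 of the 9. With replicate numbers blocked, 1.64% of genes passed and again none of the 9, of which 2 had an unadjusted p under 0.05, and DESeq2 called none of the 9. Marveld2 had the largest estimate, with 9.33, 11.6 and 12.8 CPM in control and 21.0, 17.9 and 13.3 CPM in iECKO replicates 1, 2 and 3. The groups did not overlap, but iECKO replicate 3 lay close to the controls. The share of all genes without overlap in these sums is not given here, so no excess is read from it. The log2 difference was 0.63 ± 0.20 (95% interval 0.18 to 1.08, adjusted p = 0.434). Jam3 was 19.8, 19.2 and 12.6 CPM in control and 11.1, 12.6 and 14.1 CPM in iECKO libraries (-0.44 ± 0.20, adjusted p = 0.687). The part of the Plvap-led cells, which are high in Jam3, was not tested, and their share was 3.19%, 5.44% and 2.55% of control and 2.56%, 2.91% and 2.27% of iECKO endothelial cells.

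For the other 7 genes the intervals bound what could have been missed. Ocln was 236, 245 and 226 CPM in control and 193, 225 and 226 CPM in iECKO libraries, a difference of -0.14 ± 0.14 (95% interval -0.45 to 0.18). Tjp1 differed by -0.12 ± 0.20 (-0.57 to 0.33) and Cgnl1 by 0.29 ± 0.21 (-0.18 to 0.76). Lsr differed by 0.11 ± 0.20 (-0.33 to 0.55), Jam2 by 0.19 ± 0.15 (-0.15 to 0.53), F11r by 0.19 ± 0.16 (-0.18 to 0.56) and Cldn12 by 0.05 ± 0.17 (-0.34 to 0.44). The upper ends run from 0.18 for Ocln to 0.76 for Cgnl1, and values inside these intervals cannot be told from no change with 3 libraries a group. Of 29 other tight junction genes tested, 0 passed in edgeR with or without the block, and 4 had an unadjusted p under 0.05 without it. Within zones none passed either, except Amotl2 with the block, at -0.72 ± 0.11 in arterial cells (adjusted p = 0.000847) and -0.55 ± 0.11 in capillary cells (adjusted p = 0.0315).

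Within zones the picture was the same, with none of the 9 genes past the threshold in arterial, capillary or venous cells, where 0.054%, 0.0649% and 0% of all genes passed (2.2%, 4.39% and 0.295% with the replicate block). In capillary cells 2 of the 9 had an unadjusted p under 0.05, in arterial and venous cells none. The share of all genes at that level is not given here, so no excess is read from these counts. Capillary Marveld2 was 9.71, 12.1 and 13.4 CPM in control and 27.1, 21.3 and 14.7 CPM in iECKO libraries (0.84 ± 0.24, adjusted p = 0.230). Without iECKO replicate 3 it passed, at 1.04 ± 0.20 (adjusted p = 0.0390). Without the Apln-led subcluster the same contrast was 0.15 ± 0.18. Capillary Ocln was 266, 284 and 254 CPM in control and 203, 239 and 245 CPM in iECKO libraries (-0.23 ± 0.15, adjusted p = 0.696), and 0.05 ± 0.14 without the Apln-led subcluster. Capillary Jam3 was 4.86, 4.52 and 3.57 CPM in control and 6.37, 6.72 and 7.52 CPM in iECKO libraries (0.67 ± 0.22, adjusted p = 0.299), on 51 to 123 UMIs a sum, and 0.54 ± 0.21 without the Apln-led subcluster.

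**Figure D4:**
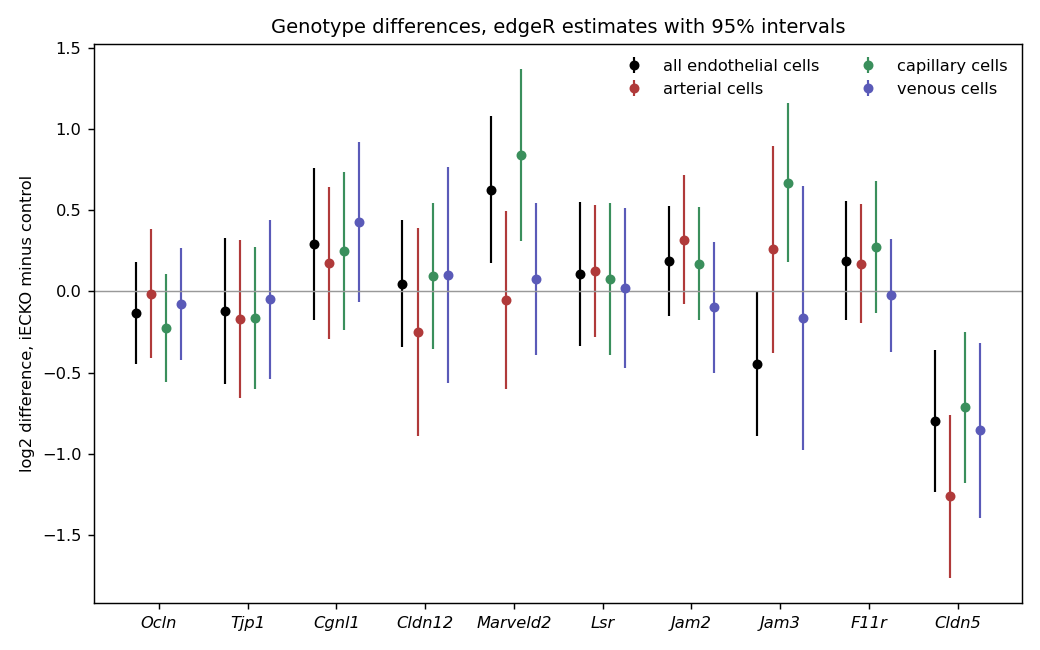
Log2 differences of iECKO against control libraries (points) with 95% intervals (bars) from edgeR for the 9 genes and Cldn5, in all endothelial cells and in arterial, capillary and venous cells. Cldn5 lies below 0 in all 4 fits, and Marveld2 in capillary cells has the highest estimate of the 9 genes (0.84).

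Whether the zone differences themselves changed with genotype was asked with an interaction term. None of the 9 genes passed for arterial against capillary cells (0.0835% of all genes passed) or for venous against capillary cells (1.01%) or for arterial against venous cells (0.142%), a contrast added after seeing the data. In edgeR, 1, 5 and 2 of the 9 had an unadjusted p under 0.05, beside 8.56%, 12.3% and 8.65% of all genes. The Marveld2 term was -0.81 ± 0.26 for arterial against capillary cells (adjusted p = 0.284), and -1.14 without iECKO replicate 3 (adjusted p = 0.0122). For venous against capillary cells it was -0.73 ± 0.28 (adjusted p = 0.259), and -0.99 without iECKO replicate 3 (adjusted p = 0.0311). In iECKO libraries alone Marveld2 was lower in arterial than in capillary cells by -0.87 (edgeR, adjusted p = 0.00169). These capillary cells include the Apln-led subcluster, at 20.5 to 31.1 CPM in raw sums, against 10.6 to 15.9 CPM in the other capillary cells. Arterial cells of the iECKO libraries held 10.6 to 11.2 CPM after TMM scaling. The part of the Apln-led cells in this difference was not tested. Jam2 in arterial cells was 305, 320 and 276 CPM in control and 405, 401 and 325 CPM in iECKO libraries. In venous cells it was 340, 289 and 254 CPM in control and 312, 275 and 236 CPM in iECKO libraries.

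The share of cells with at least 1 UMI was compared after thinning each endothelial cell to 2000 UMIs, which left out 1542 control and 944 iECKO cells. Ocln was found in 37.7% ± 1.93 of control and 33.7% ± 4.81 of iECKO cells (SD, n = 3 and 3), and in 0% to 2.94% of microglia thinned the same way. Median depths before thinning were 4014 to 5930 UMIs in these endothelial cells and 3345 to 5745 UMIs in the microglia. Tjp1 was found in 68.9% ± 2.46 and 65.0% ± 8.41, Lsr in 41.6% ± 7.67 and 44.0% ± 6.65, and Cgnl1 in 40.7% ± 6.05 and 45.5% ± 8.47. Jam2 was found in 46.0%, 43.7% and 46.5% of control and 49.6%, 47.9% and 51.3% of iECKO cells, and in 13.7% to 24.5% of microglia. Marveld2 was found in 1.53%, 2.70% and 2.43% of control and 4.01%, 2.89% and 2.82% of iECKO cells, and in 0% to 0.980% of microglia. For Jam2 and Marveld2 the groups did not overlap, both with the iECKO shares higher, beside 8.49% of 13265 genes without overlap and 5.62% with the iECKO shares higher. A two-sided exact permutation test gave p = 0.1 for both, the smallest that 3 against 3 libraries allow. Without thinning, the groups overlapped for Jam2 (70.0% ± 5.12 and 77.0% ± 5.45) and not for Marveld2 (6.12% ± 2.51 and 9.96% ± 0.616). Jam3 (2.60% and 2.28%), F11r (24.7% and 27.7%) and Cldn12 (1.28% and 1.4%) overlapped after thinning. F11r was found in 49.3% to 57.6% of microglia, above every endothelial share (22.2% to 31.0%). For Jam3 the microglial range of 1.37% to 4.55% overlapped the endothelial range of 1.82% to 3.26%.

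Compensation was examined inside the iECKO libraries by setting endothelial cells without a Cldn5 UMI against cells with at least 2, all with at least 2000 UMIs. The groups held 723, 227 and 430 undetected and 3061, 1303 and 2302 detected cells in iECKO replicates 1, 2 and 3. Among all of these cells, Jam3 was far higher and Lsr, Tjp1 and Ocln were lower in Cldn5-undetected cells, in a contrast in which 12.5% of all genes passed (6.35% higher and 6.11% lower). Jam3 was 38.6, 60.7 and 64.5 CPM in undetected against 6.48, 6.67 and 7.27 CPM in detected cells (2.95 ± 0.14, edgeR with library as block, adjusted p = 1.14e-26). Lsr was 287, 238 and 235 CPM in undetected against 396, 274 and 294 CPM in detected cells (-0.35 ± 0.06, adjusted p = 2.45e-05). Tjp1 was 413, 635 and 539 against 493, 791 and 630 CPM (-0.26 ± 0.06, adjusted p = 0.000418). Ocln was 149, 227 and 192 against 197, 227 and 231 CPM (-0.25 ± 0.07, adjusted p = 0.00818), with no difference in iECKO replicate 2. Without iECKO replicate 1 neither Lsr (adjusted p = 0.0673) nor Ocln (0.471) passed, and Ocln also missed the threshold without iECKO replicate 3 (0.0805).

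These groups did not hold the same kinds of cell. The Plvap-led subcluster, high in Jam3 and low in Ocln, Lsr and Tjp1, made up 11.3%, 13.2% and 11.9% of undetected but 0.261%, 0.153% and 0.130% of detected cells. Median depths were 3530, 4027 and 4811 UMIs in undetected and 5308, 5967 and 6360 UMIs in detected cells. The 10 pericyte markers, from cells that are also high in Jam3, summed to 72.9, 119 and 96.2 CPM in undetected and 79.7, 96.4 and 67.1 CPM in detected cells. Astrocyte markers (220, 152 and 133 against 169, 113 and 97.9 CPM) and markers of choroid plexus and ependyma (166, 188 and 61.0 against 91.1, 105 and 52.1 CPM) were higher in undetected cells of all 3 libraries. The sums for microglia, smooth muscle, monocytes and neutrophils were also higher in all 3. The part of these sums in the contrast was not tested. When arterial and capillary cells were compared zone by zone in 1 model, none of the 9 genes passed (2.72% of all genes passed, and 0 of the 9 had an unadjusted p under 0.05). The block of this model was each library and zone together, so the arterial and capillary pairs of a library entered as separate pairs. Venous cells did not enter this model, because each iECKO library had fewer than 20 undetected venous cells. Jam3 was then -0.10 ± 0.30 (95% interval -0.69 to 0.49), Ocln 0.00 ± 0.07 (-0.15 to 0.14), Tjp1 -0.05 ± 0.07 (-0.19 to 0.08) and Lsr -0.06 ± 0.07 (-0.19 to 0.08).

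The remaining zone-matched estimates were also near 0 or imprecise. Cgnl1 was 0.04 ± 0.07 (95% interval -0.10 to 0.17), Jam2 0.09 ± 0.07 (-0.05 to 0.22) and F11r 0.00 ± 0.08 (-0.16 to 0.15). Marveld2 was 0.30 ± 0.16 (-0.02 to 0.63, adjusted p = 0.408) and Cldn12 -0.21 ± 0.31 (-0.84 to 0.41). The upper ends for Tjp1, Lsr, Ocln and Cgnl1 were 0.08, 0.08, 0.14 and 0.17 on the log2 scale. They describe the difference between cells as split by Cldn5 UMIs. After thinning to 2000 UMIs, a Cldn5 UMI was also found in 2.90% to 21.9% of microglia. How many detected cells had lost the gene was not tested, so no bound on compensation is read from these intervals. Because the arterial and capillary pairs of a library were counted as separate, the intervals may be too narrow for the spread between libraries. Leaving out only the Plvap-led cells gave the same count of 0 in edgeR (7.44% of all genes passed), with Jam3 at -0.05 (adjusted p = 0.956) and 2 of the 9 at an unadjusted p under 0.05. In the control libraries, where 87.3% to 93.5% of the few undetected cells were Plvap-led, 8 of the 9 genes passed (27.8% of all genes did). Jam3 was 5.55 higher on the log2 scale there, and Ocln and Lsr were -4.08 and -4.10.

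**Figure D5:**
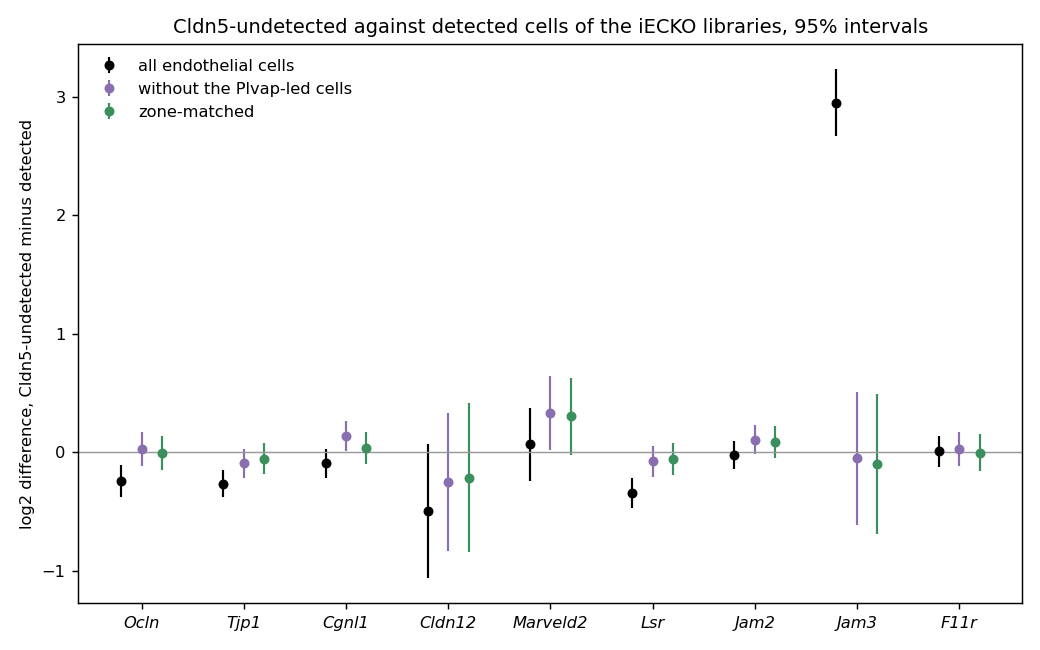
Log2 differences of Cldn5-undetected against Cldn5-detected endothelial cells of the iECKO libraries (points) with 95% intervals (bars) from edgeR for the 9 genes, over all endothelial cells, without the Plvap-led cells and matched by zone (arterial and capillary cells). The Jam3 estimate is 2.95 over all cells and -0.10 when matched by zone.

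Of 27 other tight junction genes tested in the same contrast over all endothelial cells, 3 were higher and 3 lower in undetected cells. The claudin gene Cldn6 was 3.96, 4.11 and 3.30 CPM in undetected against 1.72, 1.13 and 1.51 CPM in detected cells (1.28 ± 0.43, edgeR, adjusted p = 0.0365). These values rest on 12, 4 and 9 UMIs against 39, 11 and 35 UMIs. Matched by zone, the Cldn6 difference was 1.4 (adjusted p = 0.0766), and leaving out any 1 library ended the call over all cells (adjusted p = 0.252, 0.0959 and 0.114). The difference itself stayed at 1.16 to 1.34 in those fits, and DESeq2 gave 1.33 (adjusted p = 0.351). Without the Plvap-led cells Cldn6 passed, at 1.58 (adjusted p = 0.0162). Undetected iECKO against detected control cells gave a Cldn6 difference of 2.03 ± 0.44 (edgeR, adjusted p = 0.0235, and 0.0171 with the block). Amotl2 (0.39 ± 0.08) and Amotl1 (0.34 ± 0.07) were higher, and Ildr2, an angulin like Lsr (-0.48 ± 0.09), Pard3 (-0.33 ± 0.10) and Ybx3 (-0.28 ± 0.07) were lower. Matched by zone, none of 23 tested passed, with 4 at an unadjusted p under 0.05.

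Detected cells of the iECKO and control libraries were also set against each other, and none of the 9 genes passed (0.0153% of all genes passed in edgeR, 1.88% with the block). The largest estimate was again Marveld2, at 0.58 ± 0.21 (adjusted p = 0.491). Undetected iECKO cells against detected control cells gave 1 gene of the 9, where 4.01% of all genes passed: Jam3 at 38.5, 60.2 and 64.2 CPM against 5.34 to 6.23 CPM (3.18 ± 0.22, adjusted p = 9.82e-06). Blocking on replicate numbers, 9.66% of genes passed, and Tjp1 (-0.44 ± 0.12, adjusted p = 0.0272) and Ocln (-0.41 ± 0.12, adjusted p = 0.0453) were called lower as well. Without the Plvap-led cells none of the 9 passed (0.96% of all genes did), and Jam3 was 0.43 (adjusted p = 0.638). With the block and without those cells 6.59% of genes passed, and of the 9 Marveld2 passed at 0.89 (adjusted p = 0.0150). The Apln-led cells stayed in this fit. They were 48.4%, 22.1% and 7.87% of iECKO and 0.496% to 0.745% of control endothelial cells. In iECKO libraries they held 20.5 to 31.1 CPM of Marveld2, against 10.6 to 15.9 CPM in the other capillary cells. Their part in this call was not tested.

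The genes whose levels over the 18 sums of library and zone were most like each member are given as a description, since sums of 1 library share their depth and handling. Ocln was most like St6galnac2 (Pearson r = 0.963), then Tfrc (0.801) and Enc1 (0.798). Cgnl1 was most like Macf1 (0.969), Arglu1 (0.961) and Arhgef12 (0.95). Tjp1 was most like Pnpla6 (0.929) and Lsr most like Tbca (0.954). Among the adhesion molecules, Jam2 was most like Zbtb46 (0.908), F11r like Clic4 (0.959) and Jam3 like Amotl1 (0.815). The values for Jam3, for Marveld2 with Tars (0.882) and for Cldn12 with Zfx (0.798) rest on few UMIs. Candidates were 4559 genes that averaged 5 or more in log2 CPM.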

How the data were processed

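The deposited matrices hold raw UMI counts per gene and barcode, made by the authors (per the file headers, Cell Ranger 6.1.1) on mm10, per the submitters' processing notes. No normalization had been applied. Barcodes with at least 1000 UMIs, 500 genes and at most 15% mitochondrial counts were kept, the highest Scrublet scores were removed at 0.8% per 1000 barcodes as a fixed rate per library, and cells were clustered with scanpy 1.11.5 and leidenalg 0.10.2 (2000 variable genes, 40 components, resolution 1.0; endothelial cells 30 components, resolution 0.6). Clusters and zones were named from at least 3 markers detected in 25% of cells. Junction genes and Cldn5 were left out of the variable genes. The members and lists, and the rule naming genes, were chosen with earlier results of these data known. That rule names the 9 genes, Cldn5, list genes past the threshold (at most 4 each way by size) and the 3 most alike genes of each member.

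Counts were summed per library and class of at least 20 cells and compared with edgeR 4.0.16 in R 4.3.3 (robust quasi-likelihood, TMM, filterByExpr, Benjamini-Hochberg adjusted p under 0.05, two-sided), with DESeq2 1.42.0 as an alternative. Contrasts within a genotype and the interaction fits used the library as a block. The zone-matched fits were the exception and used each library and zone together. CPM by zone carry 1 set of TMM factors over 18 sums. CPM of subclusters and other classes are raw. The count test was first tested on simulated data. Counts at an unadjusted p under 0.05 that stand without a share of all genes are descriptive, and no excess is read from them. Nothing in the labels says that libraries are separate animals, so p-values measure the spread between these samples. Deviations of same-numbered control and iECKO libraries from their group means correlated at r = 0.429, 0.517 and 0.491 over 13244 genes, so the number was used as a pairing in an alternative fit. All other pairs were negative. Taking deviations from group means forces this in sum once the same-numbered pair is positive, so the negative pairs add nothing to the pairing. Gene coordinates come from GENCODE vM21, and promoter windows from RefSeq, which held 7 of the 9 genes, not Jam2 and Jam3. Libraries left out, marker-score zones, other gates, filters and depths were further alternatives.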

Additional observations from a re-analysis of the deposited data

Results flagged for a closer look

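For Jam2 and F11r, the differences between same-numbered libraries had opposite signs in venous cells and in the other zones. Both genes were picked by this pattern of signs in the same data. The share of all genes with the pattern is not given here, so no excess is read from it. Neither gene passed in the edgeR interaction fits below. Jam2 was higher in 3 of 3 iECKO libraries in arterial and in capillary cells and lower in 3 of 3 in venous cells. The test of the difference gave -0.27 ± 0.10 for venous against capillary cells (edgeR, adjusted p = 0.215) and 0.41 ± 0.10 for arterial against venous cells (adjusted p = 0.0997), a contrast chosen after seeing the data in which 0.142% of all genes passed. For the second contrast DESeq2 gave 0.40 (adjusted p = 0.0182).

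F11r was higher in 3 of 3 iECKO libraries in arterial and capillary cells. In venous cells the pairs differed by only -0.01, -0.02 and -0.07, which is not read as a change. The test of the difference between zones gave -0.28 ± 0.10 for venous against capillary cells (edgeR, adjusted p = 0.196). For arterial against venous cells it gave 0.20 ± 0.10 (adjusted p = 0.609).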

How the results depend on the processing

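The counts below are of the 9 genes past the threshold, or not overlapping for shares of cells. No filter on low counts gave 1 for the genotype interaction in arterial against capillary and 1 in arterial against venous cells, and DESeq2 gave 1 for the latter. Zones by marker score gave 7 for arterial against capillary cells, 6 for arterial against venous cells, 6 for venous against capillary cells and 1 for the arterial against capillary interaction. The share of all genes that passed under these zones is not given here, so the counts have no background beside them. Marker-score zones put 88.6% of control Plvap-led cells among arterial cells. There they were 11.5% of control cells, against 2.22% of venous and 0.0783% of capillary cells. Under these zones Lsr was -0.22 for arterial against capillary and Jam2 -0.15 for arterial against venous cells. In the iECKO libraries, Jam3 was -0.75 for venous against capillary cells (adjusted p = 0.0350, edgeR). The replicate block gave 3 for undetected iECKO against detected control cells and, in named zones only, 1 (Marveld2) where the fit without it gave 0. It changed no other call of the 9. Leaving out 1 library gave 0 to 1 for genotype in capillary cells, 2 to 3 for venous against capillary cells, 0 to 1 for both planned interactions, 2 to 4 for the iECKO contrast of undetected against detected cells and 2 to 4 for shares. The highest value of the capillary and interaction counts came without iECKO replicate 3, and that of shares without iECKO replicate 2. Thinning to 1000 or 4000 UMIs gave 1, as did no thinning (1).

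For undetected against detected iECKO cells, the count was 0 when zone-matched, within arterial and within capillary cells, in named zones only, and zone-matched with any 1 library left out. For undetected iECKO against detected control cells it was 0 in named zones only. Ocln was then 0.045 within capillary cells, 0.081 zone-matched without iECKO replicate 1 and 0.026 in named zones. Jam3 was -0.10 zone-matched, -0.71 within arterial cells, -0.053 in named zones and -0.062, -0.080 and -0.15 zone-matched without iECKO replicates 1, 2 and 3. The cause was not tested. Named zones only, and the zone-matched fits with a library left out, were chosen after seeing the data.

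Of 1403 values of single genes under alternatives, 1325 kept their side of the threshold, 44 lost it, 22 gained it and 12 reversed. Among the 1325, 104 that passed in neither fit changed sign (largest size 0.42), and no direction is stated for them. Cldn12, Marveld2 and Jam3 are limited by their few UMIs.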
